A study of Homo sapiens with 6 samples.

Results

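The cytosolic ribosomal protein genes were examined in HCCLM3, an established human liver cancer cell line known for its strong tendency to metastasise. Members were the protein coding genes named RPL or RPS plus a number, with an optional A, X, L or Y after it, together with RPLP0, RPLP1, RPLP2 and RPSA and without the RPS6K kinases. This gave 81 of the 58302 genes listed, 49 for the large subunit and 32 for the small one. Before sequencing, an ASO was transfected into the cells, that is, a synthetic antisense oligonucleotide designed to bind 1 RNA and reduce its amount. RNA was sequenced from 3 libraries with the SCARNA13 ASO and 3 with the Control ASO, each group numbered 1 to 3. The groups share the cell line, and no dose or time is given. Nothing in the labels says whether each library had a culture of its own. The p-values therefore reflect the spread among libraries, which may be technical.

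A cytosolic ribosome joins a large subunit, which forms peptide bonds, to a small subunit, which reads the messenger RNA. Each ribosomal protein is made from its own gene, and the genes are among the most highly transcribed in growing cells. Many of their messenger RNAs begin with a C followed by a run of pyrimidines, the terminal oligopyrimidine (TOP) element through which the mTOR kinase and LARP1 control their translation. Many of the genes also carry small nucleolar RNAs (snoRNAs) in their introns. SCARNA13 is a small Cajal body-specific RNA, a class of RNA that directs chemical changes in the RNAs of the spliceosome, and it is made from the host gene SNHG10.

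The windows below show the annotated transcription start of 7 members that the results turn on, as 20 bases before the first transcribed base and 10 from it on, from RefSeq on GRCh38.p14. Capitals mark the run of pyrimidines from the first transcribed base, where that base is a C. They stand for genes higher in the SCARNA13 ASO library at every replicate number (RPS27, RPS24, RPL22, RPS29) and genes lower at every one (RPL12, RPL7A, RPL4).
RPS27: gcaggatttccgctttcgctCCTTTCCggc
RPS24: ttggccggcgaatcgtggttCTCTTTTCCT
RPL22: ctgcgtagttcgctcacctcCCTTTCTaac
RPS29: ttttcccccgagcgcgcagctggcagcggt
RPL12: cttgtccgcgcgatttccggCCTCTCggct
RPL7A: attacccacaattccctttcCTTTCTCTCT
RPL4: acatatacagcgggagtggtaagcacttcc
They lie at chr1:153990742-153990771 (plus strand) for RPS27, chr10:78033843-78033872 (plus) for RPS24, chr1:6199586-6199615 (minus) for RPL22 and chr14:49598701-49598730 (minus) for RPS29. The others lie at chr9:127451397-127451426 (minus) for RPL12, chr9:133348198-133348227 (plus) for RPL7A and chr15:66504846-66504875 (minus) for RPL4. The motif searched was a C at the annotated first base followed by C or T, at least 5 bases in all, on the transcribed strand only. Where a gene symbol had several annotated starts, the start with the longest run was used, for the windows and for the shares. The motif was present in 46 of the 64 members with an entry (71.9%), 28 of 39 for the large subunit and 18 of 25 for the small one, against 1358 of 27241 other gene symbols (4.99%). RPS29 and RPL4 held no such run at the start used here, so starts with and without the run occurred among the genes higher and among the genes lower at every number.

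The libraries held 20457474 to 23326235 reads assigned to genes with the SCARNA13 ASO and 20663908 to 25173559 with the Control ASO. Values were taken as FPKM, fragments scaled by gene length and by a library size. No file header names the unit, and both the unit and the library size were inferred from the values. In every library this size equalled the geometric mean of the read totals times a size factor. The factor is a median of ratios, of each gene's reads to its geometric mean over the libraries. That library size was 1.24, 1.22 and 0.760 times the assigned reads in SCARNA13 ASO replicates 1, 2 and 3, against 1.21, 1.22 and 0.633 times in the Control ASO ones. Replicate 3 of both groups stood apart: across genes, a replicate 3 library correlated with any replicate 1 or 2 library at 0.90 to 0.939, and the other pairs correlated at 0.980 to 0.994. SCARNA13 itself had 2, 3 and 2 reads with the SCARNA13 ASO and 6, 5 and 2 with the Control ASO. Its level was 0.268, 0.383 and 0.468 FPKM in SCARNA13 ASO libraries, against 0.717, 0.683 and 0.556 in Control ASO libraries, with an exact two-sided permutation p of 0.1, the smallest that 3 against 3 allows. SNHG10 was at 3.05, 3.55 and 4.40 FPKM with the SCARNA13 ASO and at 4.43, 4.50 and 6.36 FPKM with the Control ASO. For both RNAs the groups did not overlap in FPKM, which rests on the inferred library size. In reads the groups overlapped for both. SCARNA13 had 3 reads in SCARNA13 ASO replicate 2 and 2 in Control ASO replicate 3, and SNHG10 had 197 and 162. Of 11 liver cancer cell markers, KRT8, KRT18 and SERPINA1 averaged at least 1 FPKM, and ALB, APOA2, APOB and GPC3 were listed at 0. Of the 6 fibroblast, 4 endothelial and 5 leukocyte markers, COL3A1 and CD14 averaged at least 1 FPKM over the 6 libraries. PDGFRB, another of the fibroblast markers, averaged 1.04 FPKM with the SCARNA13 ASO and 0.686 FPKM with the Control ASO.

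Ribosomal protein genes made up a slightly lower share of the reads with the SCARNA13 ASO at each replicate number, with the largest gap at number 3. The 81 genes took 11.3%, 11.5% and 11.9% of the assigned reads in SCARNA13 ASO libraries 1, 2 and 3, against 11.8%, 11.7% and 13.7% in Control ASO libraries. SCARNA13 ASO replicate 3 lay above Control ASO replicates 1 and 2. Large subunit genes took 7.02%, 7.18% and 7.24% with the SCARNA13 ASO and 7.38%, 7.32% and 8.34% with the Control ASO, so these groups did not overlap. Small subunit genes took 4.32%, 4.33% and 4.69% with the SCARNA13 ASO and 4.38%, 4.35% and 5.37% with the Control ASO, which overlapped. In bulk RNA, fewer cells of a type and less RNA per cell cannot be told apart.

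The balance of the subunits was close in the 2 groups. Summed FPKM of large over small subunit genes was 1.38, 1.43 and 1.34 in SCARNA13 ASO libraries, against 1.45, 1.44 and 1.34 in Control ASO libraries. On the log2 scale the SCARNA13 ASO ratio differed from the Control ASO ratio by -0.06, -0.02 and -0.003 at numbers 1, 2 and 3. The ratio was lowest in both replicate 3 libraries.

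**Figure D1:**
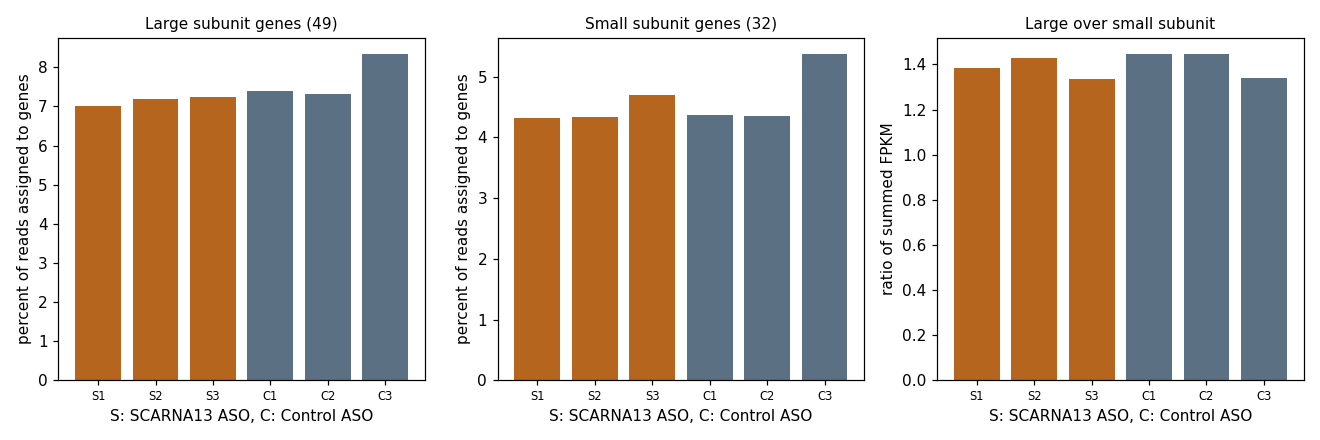
Percent of reads assigned to large subunit genes (left) and small subunit genes (middle), and the ratio of their summed FPKM (right), in each library, with SCARNA13 ASO libraries in orange and Control ASO libraries in grey. Control ASO replicate 3 has the highest share for both subunits, at 8.34% and 5.37%, and the ratio stays between 1.34 and 1.45.

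Levels differed widely among members, and 77 averaged at least 1 FPKM and were tested, 46 of the large and 31 of the small subunit. No member passed this minimum through 1 group alone, and the tested members had 159 to 248581 reads per library. The most abundant large subunit genes were RPL13A, RPL41 and RPL8, and RPS2 and RPS18 were among the most abundant small subunit genes. RPL8 lies near the peptidyl transferase centre, and RPS2 lies at the messenger RNA entry of the small subunit. RPS2 stood at 2070, 2031 and 4961 FPKM with the SCARNA13 ASO and at 2172, 2130 and 7870 FPKM with the Control ASO, so its replicate 3 level was above all others in both groups. The median level was 247 FPKM over large and 317 FPKM over small subunit genes. Of the 4 members not tested, the testis-specific copy RPL10L was listed at 0 in all 6 libraries, the muscle-enriched copy RPL3L stood at 0.0801 to 0.140 FPKM, and RPL36A and RPS10 averaged under 1 FPKM. Reads can be split between these genes and near-identical pseudogenes, so levels of single members are uncertain: 308 of 963 named ribosomal protein pseudogenes had reads. RPS28P7 alone stood at 2786, 2842 and 4736 FPKM with the SCARNA13 ASO and 3221, 2997 and 7817 FPKM with the Control ASO, far above RPS28 at 128, 128 and 276 FPKM and 138, 133 and 437 FPKM.

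Without regard to replicate numbers, no ribosomal protein gene passed the test between the groups. In a limma-trend test of log2(FPKM + 0.5) across 10120 genes, 0 members had a Benjamini-Hochberg adjusted p under 0.05, and 0 of all genes did (0.0%). At an unadjusted p under 0.05 the count was 0 members and 173 of all genes. The spread within a group came largely from replicate 3. Among the 77 members with the SCARNA13 ASO, replicate 3 lay above the mean of replicates 1 and 2 in 47 and below it in 30. With the Control ASO it lay above in 49 and below in 28. The lowest was RPS3A in both groups, at -1.65 on the log2 scale with the SCARNA13 ASO and -1.58 with the Control ASO.

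Most members were lower with the SCARNA13 ASO, by small amounts, and the median of abundant genes outside the family was close to theirs. The median log2 difference was -0.11 over large and -0.12 over small subunit genes, against -0.02 over all genes tested and -0.11 over 448 other protein coding genes of at least 100 FPKM. By replicate number, the large subunit median was -0.09, -0.01 and -0.29, and the small subunit median was -0.06, -0.04 and -0.19, so number 3 had the largest differences. At numbers 1, 2 and 3, 40, 25 and 37 of 46 large subunit genes and 21, 19 and 22 of 31 small subunit genes were lower. Rescaled to total reads, the medians were -0.01 and -0.02 for the subunits and 0.06 over all genes. Without Control ASO replicate 3 they were 0.003 for the large and 0.10 for the small subunit.

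Many members had 1 direction at all 3 numbers. They were lower at all 3 in 39 (50.6%), against 29.6% of all genes tested and 43.3% of the abundant other genes. They were higher at all 3 in 9 (11.7%), against 23.9% of all genes and 11.6% of the abundant other genes. They included RPL39, RPL7 and RPL22 of the large subunit and RPS23, RPS24, RPS27L, RPS29 and RPS27 of the small one. Groups that did not overlap were found in 1 member above, against 4.0% of all genes, and in 4 members below (RPL3, RPL6, RPL30 and RPS4X), against 4.44%. The levels of members went with the differences: the median was -0.15 for the 63 members of at least 100 FPKM and 0.08 for the 14 below that.

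**Figure D2:**
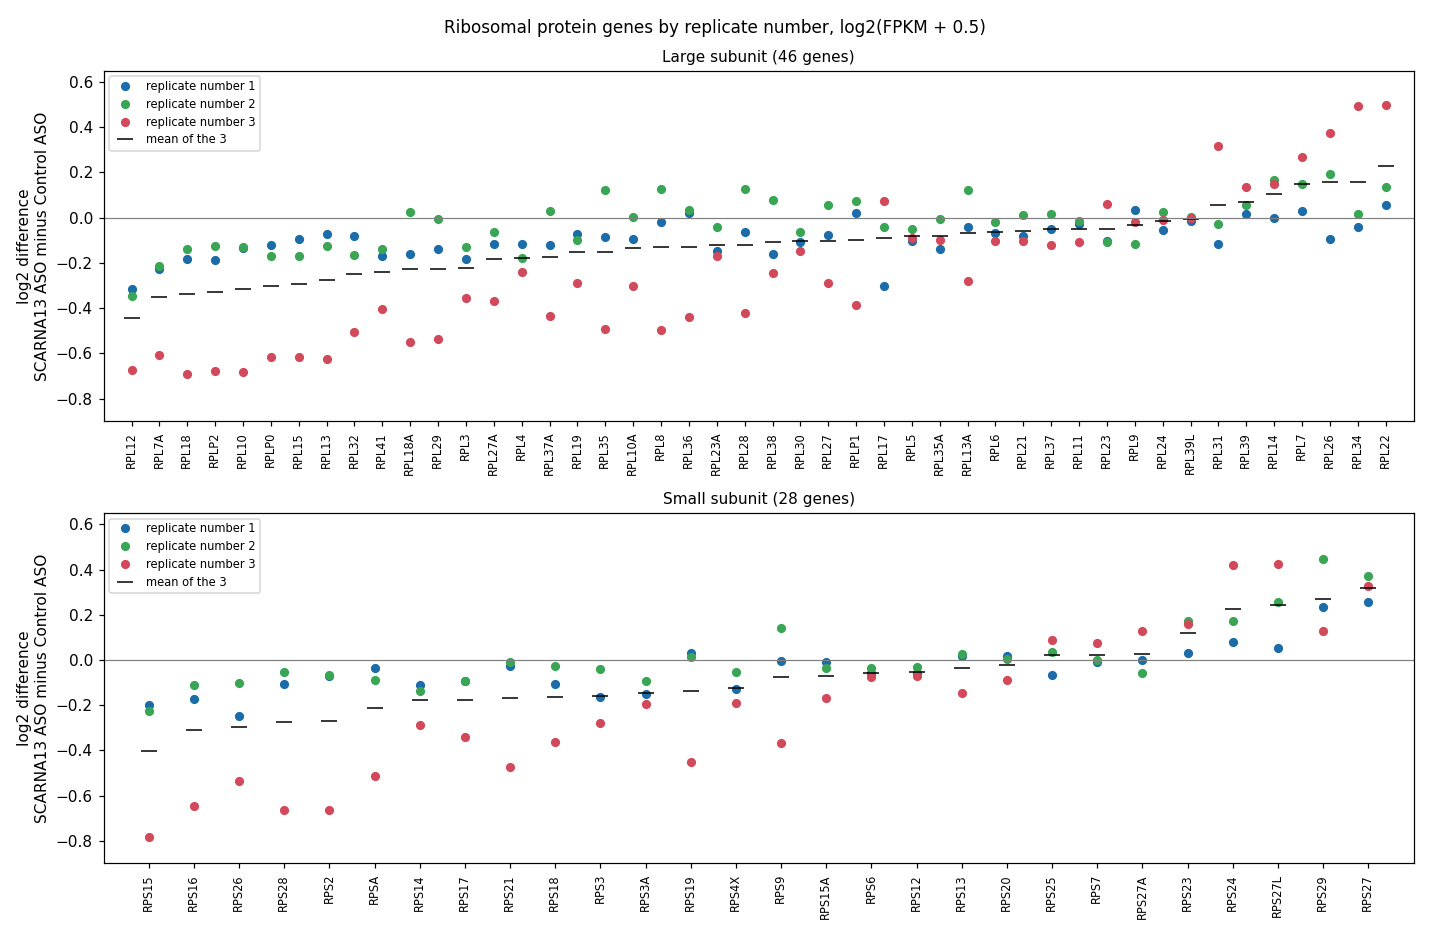
Difference in log2(FPKM + 0.5), SCARNA13 ASO minus Control ASO, for 74 tested members at replicate numbers 1, 2 and 3, with 46 large subunit genes above and 28 small subunit genes below, ordered by the mean (black bar). The number 3 points of many genes lie apart from the other two, and the 3 points of RPS27 and of RPS29 all lie above 0.

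The GC content of a member's transcript went with its difference mainly at number 3. Spearman's rho over the 77 members was -0.25, -0.14 and -0.65 at numbers 1, 2 and 3, as a description over genes that share libraries, and -0.30, -0.25 and -0.72 against the level of the gene. The part of GC content and level in the members' differences was not tested beyond the corrected fit.

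**Figure D3:**
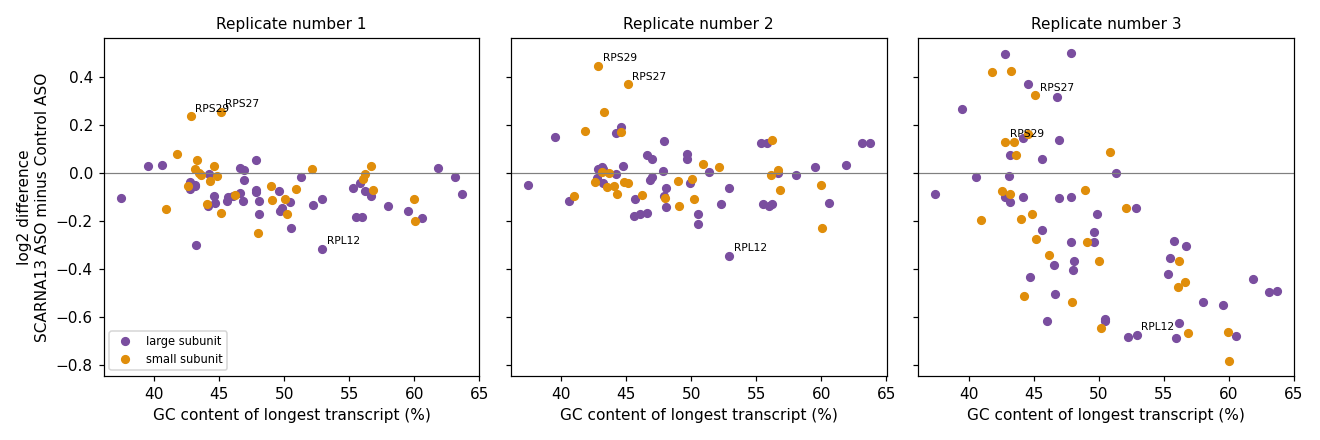
Log2 difference, SCARNA13 ASO minus Control ASO, against the GC content of the longest transcript (%), for 74 tested members at replicate numbers 1, 2 and 3, with large subunit genes in purple and small subunit genes in orange. At number 3 the genes of higher GC content lie lower.

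With the replicate number as a block and GC content corrected, 1 member was called, in the direction of higher levels with the SCARNA13 ASO. That limma fit called 3.06% of all genes higher and 2.15% lower. The block without GC correction called 0 members and 0 of all 10120 genes.

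RPL12 fell in a fit of replicates 1 and 2 alone. RPL12 is part of the base of the stalk that recruits translation factors, and its gene (ENSG00000197958, GRCh38 chr9:127447674-127451405, minus strand) hosts SNORA65. It stood at 488, 450 and 597 FPKM with the SCARNA13 ASO and at 608, 572 and 953 FPKM with the Control ASO. Every SCARNA13 ASO value was below the Control ASO value of its number, and SCARNA13 ASO replicate 3 lay between Control ASO replicates 1 and 2. The means were 512 ± 76.1 and 711 ± 210 FPKM (SD, n = 3 each, SCARNA13 ASO and Control ASO), and the difference without pairs was -0.45 ± 0.30 (SE, limma adjusted p = 1.0). Over replicates 1 and 2 with the block it was -0.33 ± 0.04 (SE, limma adjusted p = 0.0368), 20.5% lower. That fit called 1 member lower, RPL12, and 1 higher, against 3.11% and 3.49% of all genes. Left-out number 1 instead gave RPL12 -0.51 with the block (limma adjusted p = 0.372). Left-out number 2 gave -0.50 (limma adjusted p = 0.238). Each of these fits called 0 members, against 24 and 216 of all genes.

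With the block on FPKM rescaled to total reads, a setting chosen after seeing the data, RPL12 was again the only member called lower, at -0.35 (limma adjusted p = 0.0499), and 1 member was called higher. That fit called 1.35% of all genes higher and 0.742% lower. With GC correction and all 3 numbers, RPL12 was at -0.40 ± 0.08 (SE, limma adjusted p = 0.0577). SNORA65 had 7, 7 and 8 reads with the SCARNA13 ASO and 25, 36 and 14 with the Control ASO, and the groups did not overlap. Nor did they for SNORD14A in RPS13 (3, 3 and 2 against 7, 13 and 6 reads). SNORD72 in RPL37 went the other way without overlap (2, 3 and 1 against 0, 0 and 0). In FPKM, 4.44% of all genes tested lay wholly below and 4.0% wholly above. Whether the SNORA65 reads came from the small RNA or from the intron of RPL12 was not tested.

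No call was made for RPS27, RPS29 or RPL7A in the fits used here. RPS27, a zinc finger protein of the small subunit (chr1:153990759-153992150, plus strand), stood at 1319, 1370 and 1921 FPKM with the SCARNA13 ASO and at 1105, 1060 and 1533 FPKM with the Control ASO. It was higher at each number, with overlap between the groups, and its difference was 0.31 ± 0.08 with GC correction and block (SE, limma adjusted p = 0.0724). RPS29, another small zinc finger protein (chr14:49570984-49599164, minus strand), stood at 92.7, 114 and 152 FPKM with the SCARNA13 ASO and at 78.7, 83.6 and 139 FPKM with the Control ASO (0.26 ± 0.09, SE, limma adjusted p = 0.131). RPL7A, a large subunit protein (chr9:133348214-133351426, plus strand), stood at 824, 802 and 1165 FPKM with the SCARNA13 ASO and at 965, 929 and 1777 FPKM with the Control ASO. It was lower at each number, by 0.21 to 0.61 on the log2 scale, and the groups overlapped. With GC correction and block its difference was -0.32 ± 0.10 (SE, limma adjusted p = 0.115).

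**Figure D4:**
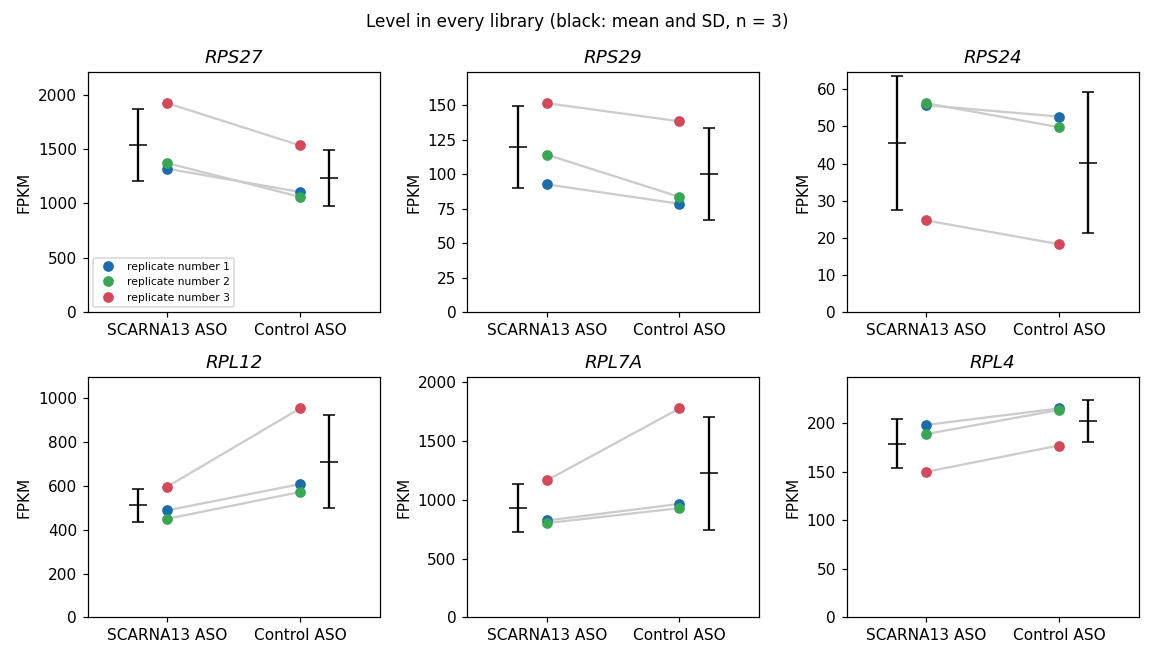
FPKM of 6 members in each library, SCARNA13 ASO on the left and Control ASO on the right, with colours and lines for replicate numbers and black bars for the mean and SD of 3. The groups overlap for all 6 genes, and replicate 3 (red) is far from the others in 1 or both groups.

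The 4 members with every SCARNA13 ASO library below every Control ASO library had differences of -0.22 to -0.06 without pairs. RPL3, which reaches towards the peptidyl transferase centre, stood at 385, 389 and 414 FPKM with the SCARNA13 ASO and at 438, 426 and 529 FPKM with the Control ASO. RPS4X, the X-linked copy of a small subunit protein, stood at 297, 307 and 276 FPKM with the SCARNA13 ASO and at 324, 319 and 314 FPKM with the Control ASO. RPL30 ranged from 138 to 142 FPKM with the SCARNA13 ASO and from 148 to 153 FPKM with the Control ASO. These gaps were narrow, and RPL6 lay closest, at 168.1 to 179.5 FPKM with the SCARNA13 ASO and 180.4 to 185.9 FPKM with the Control ASO. None of the 4 passed with GC correction and block, with limma adjusted p from 0.13 (RPL3) to 0.423 (RPL30).

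RPS24, RPL22 and RPL7 were higher at each number, with the largest log2 difference at number 3. RPS24, a small subunit protein with several splice forms, stood at 55.7, 56.2 and 24.7 FPKM with the SCARNA13 ASO and at 52.7, 49.8 and 18.3 FPKM with the Control ASO. RPL22, which also binds RNA outside the ribosome, stood at 61.7, 62.8 and 38.4 FPKM with the SCARNA13 ASO and at 59.4, 57.2 and 27.0 FPKM with the Control ASO. In both genes replicate 3 was the lowest library of each group, the groups overlapped, and the limma adjusted p with GC correction and block was 0.11 for RPS24 and 0.147 for RPL22. RPL7 stood at 149, 155 and 63.0 FPKM with the SCARNA13 ASO and at 146, 140 and 52.3 FPKM with the Control ASO, also overlapping. RPL39 ranged from 248 to 259 FPKM with the SCARNA13 ASO and from 225 to 250 FPKM with the Control ASO.

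RPS15, a protein of the head of the small subunit, had the lowest difference of the small subunit and the widest spread. It stood at 478, 446 and 1041 FPKM with the SCARNA13 ASO and at 549, 522 and 1790 FPKM with the Control ASO. Its difference was -0.34 ± 0.09 with GC correction and block (SE, limma adjusted p = 0.0889). Without pairs it was -0.40 ± 0.60 (SE, limma adjusted p = 1.0), and there the sign turned, to 0.18, without Control ASO replicate 3. RPS16, RPS26 and RPS28 were among the next lowest in this subunit, between -0.31 and -0.27, none of them past the threshold. In the large subunit RPL18, RPLP2 and RPL10 followed RPL12 and RPL7A, between -0.34 and -0.32. The highest large subunit differences, in RPL22, RPL34, RPL26, RPL7 and RPL14, ran from 0.23 to 0.10 and also missed the threshold.

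The stalk genes and RPSA had their lowest differences at number 3. RPLP0, the stalk's core, had differences of -0.12, -0.17 and -0.62 at numbers 1, 2 and 3. Its partners RPLP1 and RPLP2 had 0.02, 0.08 and -0.39, and -0.19, -0.12 and -0.68. RPSA, which is also known as a laminin receptor, had -0.04, -0.09 and -0.51. RPL5 and RPL11, which bind 5S RNA and can hold back MDM2, had differences of -0.10, -0.05 and -0.09, and of -0.03, -0.02 and -0.11. RPL39L, a copy of RPL39 abundant in testis, stood at 29.6, 30.3 and 39.3 FPKM with the SCARNA13 ASO and at 30.0, 30.3 and 39.4 FPKM with the Control ASO. RPS27L, a copy of RPS27 that p53 is known to induce, had 0.05, 0.26 and 0.43. None of these passed a threshold in the fits used here.

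RPL4 is a large subunit protein with a long loop that lines the exit tunnel for the nascent peptide. Its gene (ENSG00000174444, chr15:66498015-66524532, minus strand) ranked 50 of the 81 members by level. It stood at 198, 189 and 150 FPKM with the SCARNA13 ASO and at 215, 213 and 177 FPKM with the Control ASO. Each SCARNA13 ASO value was below the Control ASO value of its number, but SCARNA13 ASO replicates 1 and 2 lay above Control ASO replicate 3. The means were 179 ± 25.6 and 202 ± 21.6 FPKM (SD, n = 3 each, SCARNA13 ASO and Control ASO; exact two-sided permutation p = 0.3). The limma-trend difference was -0.18 ± 0.25 (SE, adjusted p = 1.0) with a 95% interval from -0.79 to 0.43. It was -0.18 ± 0.06 with GC correction and block (SE, limma adjusted p = 0.122). The 95% interval of that fit, not adjusted for the number of genes, was -0.34 to -0.03. In that fit 3167 of 10104 genes had an unadjusted limma p under 0.05. The RPL4 difference was -0.08 when rescaled to total reads with the block (limma adjusted p = 0.46).

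By Pearson's r of log2(FPKM + 0.5) over the 6 libraries, the genes most like RPL4 were JOSD1, ARL6IP1, GNG11, KDELR2 and FAM84B, at 0.997 to 0.998. None of these is a ribosomal protein gene, and 648 of 10119 genes (6.40%) were above 0.9. Among the other 76 tested members, 3 were above 0.9: RPS12 (0.959), RPL5 (0.920) and RPS6 (0.90). At the other end was RPS27, at -0.988. In both groups, replicate 3 was the lowest library for RPL4 and the highest for RPS27. How much of these r values comes from replicate 3 was not tested.

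Other genes of the pathway were read in the same GC-corrected and blocked fit, where 3.06% of all genes were called higher and 2.15% lower and the median over all genes was 0.0003. Calls, medians and differences of these lists come from that fit. Without the block, or with the block and no GC correction, 0 of 10120 genes were called. None of the calls below was therefore made in those fits. Of 23 non-ribosomal TOP messenger RNAs tested, 2 rose and 0 fell: NPM1, a nucleolar chaperone (0.38, limma adjusted p = 0.0457), and EIF3E, an initiation factor subunit (0.43, limma adjusted p = 0.037). The list's median was -0.08, and before correction 12 genes were lower and 4 higher at all 3 replicate numbers. IMPDH2, an enzyme of guanine nucleotide synthesis, had the largest difference of the list, -0.46, and did not pass (limma adjusted p = 0.0517). NPM1 stood at 120, 112 and 66.5 FPKM with the SCARNA13 ASO and at 95.3, 93.9 and 43.8 FPKM with the Control ASO. Of 13 RNA polymerase I genes, POLR1E fell (-0.41, limma adjusted p = 0.038) and none rose, with a median of -0.10. It stood at 10.9, 9.94 and 9.29 FPKM with the SCARNA13 ASO, against 14.0, 13.9 and 13.5 FPKM with the Control ASO, with no overlap. Of 15 ribosomal protein chaperones and importers, GRWD1, the counterpart of a yeast RPL3 chaperone, fell (-0.40, limma adjusted p = 0.043) and none rose, with a median of -0.06. Unlike those of POLR1E, the groups overlapped in FPKM for NPM1, EIF3E and GRWD1.

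Of 39 ribosome assembly factors, 0 passed in either direction, with a median of -0.11. Of 17 genes of the TOR pathway and TOP repressors, TSC2, an inhibitor of mTORC1, rose (0.38, limma adjusted p = 0.045) and none fell, with a median of 0.04. EIF4EBP1, a repressor of initiation that mTORC1 switches off, had 0.36 (limma adjusted p = 0.0504). DDIT4, an inhibitor of mTORC1, had 0.60 (limma adjusted p = 0.0527). EIF4EBP2, a related repressor, had -0.33 (limma adjusted p = 0.0568), and RPTOR, a component of mTORC1, had 0.33 (limma adjusted p = 0.0584). Of 9 genes of the 5S particle and p53 response, GADD45A, a stress gene, rose (0.52, limma adjusted p = 0.0365) and none fell. The groups overlapped in FPKM for TSC2 and did not for GADD45A. The 4 paralogs outside the naming rule had a median of 0.24, with RPL26L1 at 0.34 (limma adjusted p = 0.0512), and none passed. Of 77 mitochondrial ribosomal protein genes 1 rose and 1 fell, with a median of -0.04, and both shares were below those of all genes. Of the 17 tested members linked to Diamond-Blackfan anaemia none passed, with a median of -0.07.

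**Figure D5:**
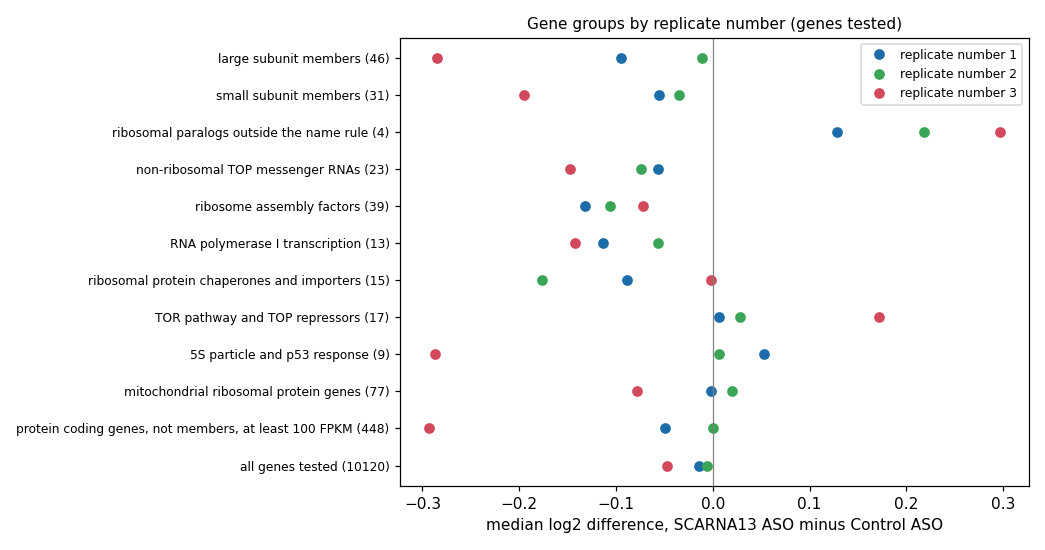
Median log2 difference, SCARNA13 ASO minus Control ASO, of each gene group at replicate numbers 1, 2 and 3, before GC correction, with the number of genes tested in brackets. The large subunit medians are -0.09, -0.01 and -0.29, and abundant protein coding genes outside the family lie close to them.

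Members were also described by snoRNA hosting and by the pyrimidine start, with no test. The 28 members that host one of 60 annotated small RNA genes had a median difference of -0.15, against -0.10 for the other 49. Members with a pyrimidine start had a median of -0.11 (44 tested), against -0.13 for the 17 in the table without it. Of the 60 small RNA genes, 14 had any reads.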

How the data were processed

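Per the labels' protocols, libraries were built from total RNA with a TruSeq kit of Illumina. The deposited tables hold 1 value per gene in each library, taken here as FPKM from the values, since no header names the unit. The submitters' processing notes list TopHat2 2.0.9, Bowtie2 2.0.6 and hg19 without saying what each was used for. For the counting tool and annotation, the sources used here name none. Gene positions are GRCh38, since 97.6% of the matched identifiers had GENCODE 29 coordinates. Of the 81 members, 66 did; the positions printed are those of the deposited files. Whether counting used strand is not given, so overlapping and antisense genes are uncertain.

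FPKM times gene length gave whole multiples of 1 step per library, so reads were recovered (100% of values within 0.01 reads). Groups and replicate numbers came from the sample titles. limma 3.58.1 (limma-trend, R 4.3.3) was fitted on log2(FPKM + 0.5) for genes averaging at least 1 FPKM, with group as the only term and two-sided Benjamini-Hochberg adjusted p under 0.05 over all genes. This scale understates the change of low genes. Same-numbered libraries deviated together (r of 0.835, 0.785 and 0.915), so numbers were taken as pairs by the rule used here; crossed replicates 1 and 2 gave 0.814 and 0.805, so the pairing of these 2 rests on the titles. Alternatives were a replicate block, a loess GC correction (span 0.5, longest GENCODE transcript) with the block, other pseudocounts, filters and scales, limma-voom on recovered reads, and left-out libraries. Members, lists and named genes (extremes of each subunit, members called, the stalk, RPSA, RPL5, RPL11, L copies, the most abundant and those most like RPL4) were chosen with earlier results of these data known. No 2 libraries agreed within sampling noise. Some members enter the counts, sums and medians and are not reported here one by one, nor drawn as single points.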

Additional observations from a re-analysis of the deposited data

How the results depend on the processing

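The count of members called was 0 without a block and 0 with the replicate block, which took the numbers as pairs; it changed no call. It was 1 with GC correction and replicate block, 2 without replicate 3 of both groups (RPL12 the only one lower) and 2 with totals rescaled and the block (RPL12 again the only one lower; this setting was chosen after seeing the data). Leaving out single libraries without a block gave 0 to 0. Over all genes the counts were 0, 0, 526, 670 and 214 in these fits. Without replicate 1 or replicate 2 of both groups, with the block, 0 members were called, against 24 and 216 of all genes. The small subunit median was -0.024 on FPKM rescaled to total reads, with or without the block, -0.14 to 0.10 over single left-out libraries and -0.18 to -0.04 over left-out numbers. Over single left-out libraries, the large subunit median ran from -0.21 to 0.003 and the difference of RPL4 from -0.27 to -0.06. Large minus small was 0.01 with all libraries and -0.096 to -0.0038 over single left-out libraries, and -0.012 to 0.0017 over left-out numbers, so its sign is not fixed. RPS15 reversed to 0.18 without Control ASO replicate 3, in a range of -0.79 to 0.18. FPKM here depends on a library size that differs from the read total in every library. Rescaling to total reads takes out the size factor behind it.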
